A study of Mus musculus with 26 samples.

Results

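The respiratory chain of the inner mitochondrial membrane carries electrons from NADH and succinate to oxygen and uses the proton gradient it builds to make ATP. Complex I takes electrons from NADH, complex II takes them from succinate and is also a citrate cycle enzyme, complex III passes them from ubiquinol to cytochrome c, complex IV hands them to oxygen, and complex V is the ATP synthase. Most subunits are encoded in the nucleus and imported, while the remaining ones are encoded by mitochondrial DNA. Hepatocytes are rich in mitochondria, and the liver uses the chain to power urea synthesis, glucose production and fatty acid oxidation.

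The genes described here are the nuclear-encoded subunits, chosen by symbol from the combined table of 54532 gene rows. A row was taken when its symbol began with Nduf, Sdha, Sdhb, Sdhc, Sdhd, Uqcr, Cox4, Cox5, Cox6, Cox7, Cox8 or Atp5 and did not contain -ps, and when it averaged at least 10 reads over the 26 mice. Of 102 rows with such symbols, 94 were kept, comprising 38 of complex I, 4 of complex II, 8 of complex III, 15 of complex IV and 17 of complex V. The other 12 were assembly factors that share the prefixes Nduf and Sdh (Ndufaf1 to Ndufaf8 and Sdhaf1 to Sdhaf4), which help to build complexes I and II and are not part of the finished enzymes. Ndufa4 was counted with complex IV, to which its protein belongs, and its relative Ndufa4l2 and the supercomplex factor Cox7a2l were counted there too. Atp5s, a factor of the ATP synthase rather than a subunit, was counted with complex V. Ndufs6b and Ndufb4c, counted with complex I, are annotated as processed pseudogenes, and their reads may be shared with Ndufs6 and Ndufb4.

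RNA sequencing covered 26 livers of C57BL/6 mice dosed with benoxacor, a safener added to herbicides to protect the crop. The mice were gavaged on 3 consecutive days, 5 of them at 0, 5 at 0.5, 8 at 5 and 8 at 50 mg/kg. Tissue was collected 24 hours after dosing ended, and the animals had been acclimatised from 4-8 weeks, in the words of the labels, while mixing of bedding evened out their microbiome. The vehicle given at 0 mg/kg and the sex of the mice are not in the labels. The mouse numbers form 2 runs, 619 to 632 (11 mice, of which 1, 2, 4 and 4 had the doses in ascending order) and 601 to 616 (15 mice, with 4, 3, 4 and 4). What sets the runs apart is not in the labels, and the run numbered from 619 holds a single control, 0 mg/kg replicate 5. Replicate numbers here follow the order of deposit within a dose. Libraries held 5433074 to 9088626 counted reads (median 7105531), and the members took 0.829% to 1.21% of them. Values are counts-per-million scaled by TMM (CPM) unless given per length.

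All 10 hepatocyte markers were detected, and their summed level was 51316 to 140803 CPM over the 26 libraries. Its median was 102908, 74699 and 82857 CPM at 0.5, 5 and 50 mg/kg, against 58719 CPM at 0 mg/kg. This sum leans on 1 gene, Alb, which gave 106224 of the 140803 CPM in 5 mg/kg replicate 6. In the 24 libraries other than 5 mg/kg replicates 6 and 8, Alb had 33686 to 105976 CPM. The libraries of 5 mg/kg replicates 6 and 8 held transcripts of brown fat, as described with complex IV. The 12 acute phase genes summed highest in 0.5 mg/kg replicates 2 and 1, at 15868 and 10026 CPM, against at most 6638 CPM in any other liver. In whole liver, fewer cells of a type and less RNA per cell cannot be told apart.

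Levels per transcript length spanned a wide range within complexes, as the plot of level by complex shows. Complex IV and complex III had medians of 212 and 211 RPKM (CPM per kilobase of transcript), complex V had 189, complex II 119 and complex I 66.8. The assembly factors had a median of 9.96 RPKM. Ndufa4, a subunit at the surface of complex IV, was the highest of the 94 members at 739 RPKM. Next in its complex came Cox6c at 430, Cox6a1 at 339, Cox7c at 336 and Cox4i1 at 309 RPKM, of which Cox4i1 encodes the largest nuclear subunit. In complex V the catalytic beta subunit Atp5b was highest at 388 RPKM, and in complex III the hinge protein Uqcrh at 363 RPKM. Complex I was led by Ndufa6, a supernumerary subunit of the LYR family, at 288 RPKM.

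At the low end, Ndufb2 had 2.31 RPKM, computed over an annotated transcript of 4371 bases that is long for a small subunit, and the locus overlaps annotated genes on both strands. Ndufa4l2 had 1.82 RPKM and Atp5s 3.86 RPKM. Sdhaf4, which helps Sdha to assemble, was the highest assembly factor at 28.6 RPKM, and Sdhaf3, which acts on Sdhb, was the lowest at 2.21 RPKM. The value of Sdhaf3 was also computed over a long annotated transcript, of 4323 bases. By mean reads Sdhaf3, at 69.1, was not the lowest, as Ndufaf5 had 26.4. Of the 94 members, 31 overlap an annotated gene on the other strand, and the strand setting of the counting is not given in the sources used here.

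**Figure D1:**
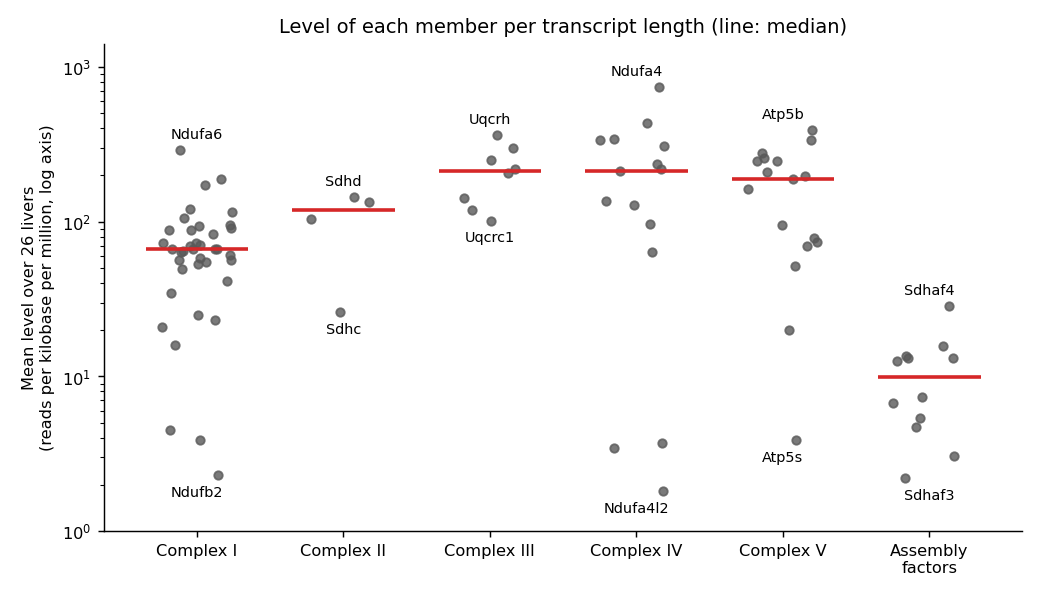
Mean level of each of the 94 members over 26 livers, in RPKM on a log axis, by complex; each point is a member and the red line is the median. Medians lie at 212 for complex IV, 211 for complex III and 66.8 for complex I, while the assembly factors lie lower, with a median of 9.96.

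Cytochrome c oxidase draws on paired genes for several subunits, with a form used in most tissues and a form found mainly in muscle, heart, brown fat, lung or testis. In these livers the general form held nearly all reads. Over the 26 libraries Cox4i1 had 45707 reads and its lung-enriched relative Cox4i2 had 14. Cox6a1 had 37386 reads, against 4 for the heart and muscle form Cox6a2, and Cox6b1 had 16206, against 77 for the testis form Cox6b2. Cox8c and Cox7b2 had no read in any library. Cox4i2, Cox6a2, Cox6b2, Cox7b2 and Cox8c were among the 8 rows that missed the minimum of 10 reads.

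Cox8b and Cox7a1, forms known from muscle, heart and brown fat, did reach the minimum, through a pair of libraries. Cox8b had 155 reads in 5 mg/kg replicate 6 and 149 in replicate 8, which is 19.2 and 15.5 CPM, and 3 reads in the other 24 libraries together. Cox7a1 had 6.68 CPM in replicate 6 and 5.39 CPM in replicate 8, against 0.297 to 2.16 CPM (median 0.975) in the other 24. Both libraries stood above all others for both genes. Per length, Cox8b made up 15.3% and 17.5% of the Cox8a and Cox8b total in replicates 6 and 8, and Cox7a1 made up 9.76% and 9.24% of the Cox7a2 and Cox7a1 total. Both genes missed the filter on low counts and were not among the 92 members tested. Without that filter all 94 were tested and edgeR called 0 by dose.

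All 4 genes listed as brown fat markers were high in the same libraries, though Plin1 and Adipoq are not particular to brown fat. In replicates 6 and 8 the uncoupling protein Ucp1 was at 79.7 and 55.2 CPM, against at most 1.92 CPM in the other 24, and Cidea was at 35.4 and 15.9 CPM, against at most 0.443 CPM. The lipid droplet protein Plin1 was at 44.5 and 76.2 CPM in replicates 6 and 8 and the hormone Adipoq at 42.2 and 97.8 CPM, against at most 0.739 and 1.74 CPM in the other 24. The summed markers gave 202 and 245 CPM, against 0 to 4.58 CPM elsewhere. The muscle markers did not follow them to the same level, with 14.2 and 1.66 CPM summed over 8 genes. In replicate 6 Ckm was at 3.34 CPM, Acta1 at 5.69, Tnnt3 at 1.48 and Mb at 3.09 CPM, each above the highest of the other 24, at 0.145, 0.749, 0.296 and 0 CPM. The remaining muscle markers were not, with Myh7 and Myh6 at 0 CPM. Myl2 and Actc1 had 0.124 and 0.495 CPM there, against up to 0.159 and 0.599 CPM in the other 24. In replicate 8 Tnnt3 at 0.622 CPM and Mb at 0.830 CPM were above the other 24, and no further muscle marker was. The highest sum elsewhere, 14.2 CPM, was carried by Myh6 at 11.8 CPM in 5 mg/kg replicate 3. Replicate 8 also held the steroid-producing cell genes Cyp11a1 at 473 CPM and Hsd3b1 at 1306 CPM, while replicate 6 had no Cyp11a1 read and 0.124 CPM of Hsd3b1. Both libraries came from the run numbered from 619 and from 1 dose. Of the 8 mice at 5 mg/kg only these 2 had Cox8b above the highest control, and all 8 mice at 50 mg/kg had 0 CPM. Cox7a1 was above the highest control in 5 of 8 mice at 5 mg/kg and in 2 of 8 at 50 mg/kg. The cause of the high values in the 2 libraries was not tested. At 5 against 0 mg/kg the median log2 fold change of all members was 0.18 both with and without these 2 libraries.

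**Figure D2:**
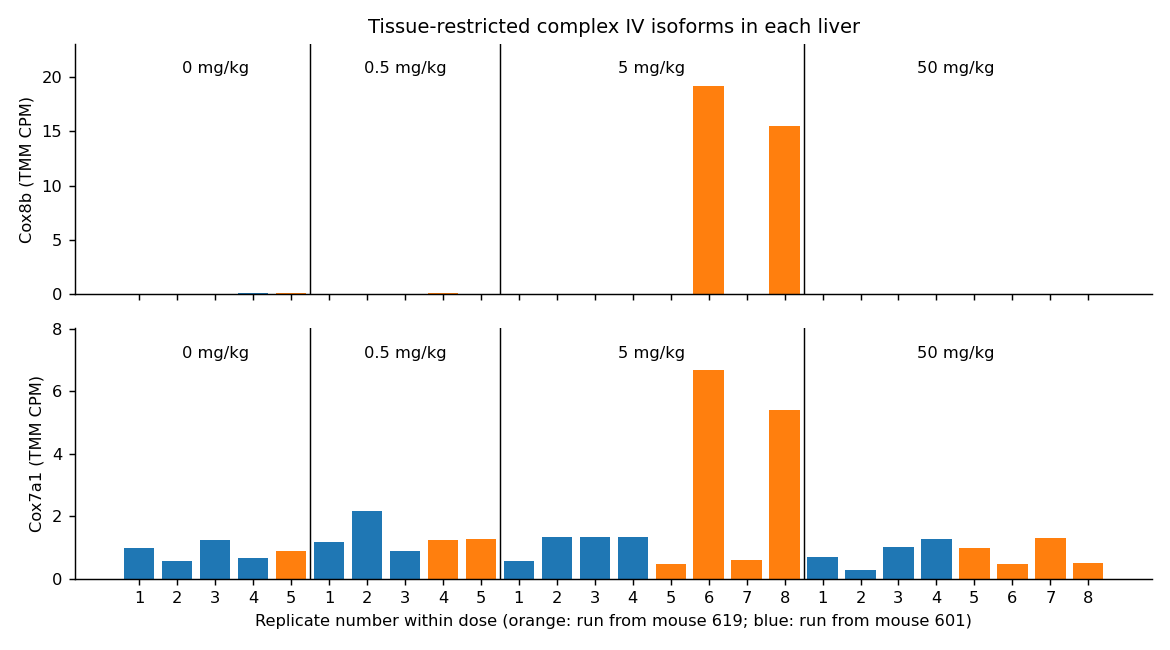
Level of Cox8b (upper) and Cox7a1 (lower) in each of 26 livers, in TMM-scaled CPM, by dose and replicate number; orange bars are mice of the run from 619 and blue bars those of the run from 601. The bars of 5 mg/kg replicates 6 and 8 reach 19.2 and 15.5 for Cox8b and 6.68 and 5.39 for Cox7a1, above every other library.

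The promoters of the general and the restricted form of subunit 8 are shown because Cox8b was kept through 5 mg/kg replicates 6 and 8 and had 3 reads in the other 24 livers. Both are from RefSeq on GRCm38.p6, 250 bases before to 50 after the annotated start, on the minus strand. Cox8a lies at chr19:7217567-7217866 and Cox8b at chr7:140900397-140900696, and capitals mark the ETS factor core CCGGAAG, here read on the opposite strand as CTTCCGG.
Cox8a: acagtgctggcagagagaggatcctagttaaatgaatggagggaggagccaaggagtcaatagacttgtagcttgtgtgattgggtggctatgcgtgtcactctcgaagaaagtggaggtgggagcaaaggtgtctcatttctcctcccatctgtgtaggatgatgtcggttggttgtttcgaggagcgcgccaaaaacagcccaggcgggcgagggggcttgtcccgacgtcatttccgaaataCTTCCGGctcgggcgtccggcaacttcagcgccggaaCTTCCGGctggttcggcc
Cox8b: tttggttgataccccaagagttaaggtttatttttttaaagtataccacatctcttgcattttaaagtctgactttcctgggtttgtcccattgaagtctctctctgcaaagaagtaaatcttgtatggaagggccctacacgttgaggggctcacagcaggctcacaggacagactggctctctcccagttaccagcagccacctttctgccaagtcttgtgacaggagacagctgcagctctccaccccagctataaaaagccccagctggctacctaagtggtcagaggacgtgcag

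The Cox8a window holds 2 such matches and the Cox8b window none. Promoters were found for 76 of the 94 members. The ETS core, bound by GABP, stood on either strand in 20 of them (26.3%), against 9.12% of 27025 promoters of the same length. The NRF1 core GCATGCG was in 15.8% of member promoters, against 3.64% of all. The YY1 core AGATGGC was in 13.2%, against 6.45%, and the nuclear receptor motif AAGGTCA, which ERR factors use, in 10.5%, against 4.66%. The 27025 promoters were not matched to the members for expression in liver or for base composition. These are matches of letters, and no binding was measured.

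No member passed the test at any dose. By edgeR's quasi-likelihood test on the 26 mice, with dose and run in the model and Benjamini-Hochberg adjustment over 14415 genes, 0 of the 92 members tested had an adjusted p under 0.05 at 50 against 0 mg/kg, where 0.00694% of all genes did. The count was likewise 0 for 5 and for 0.5 mg/kg over 0 mg/kg and for 50 over 5 mg/kg, in each of which 0% of all genes passed, and across dose ranks, where 0.0139% did. DESeq2 and limma-voom called 0 members in these comparisons too. At an unadjusted p under 0.05 there were 4 members at 50 mg/kg (5.11% of all genes), 3 at 5 mg/kg (6.18%) and 11 at 0.5 mg/kg (6.99%), each with a positive log2 fold change. There were 0 at 50 against 5 mg/kg (4.85% of all genes) and 1, Ndufaf6, across dose ranks (4.26%). At 50 against 0 mg/kg the 95% intervals of 89 of the 92 members lay within a 2-fold change either way, and those of 65 within 1.5-fold. At 5 mg/kg the counts were 90 and 41, and at 0.5 mg/kg 89 and 44. These comparisons share the same 5 control mice.

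The folds leaned to positive values in every complex, as the plot of folds by complex shows. At 50 against 0 mg/kg, 75 of 92 members were positive with a median log2 fold change of 0.12, beside 51.1% of all genes and a median of 0.01. Scaled by library totals instead of TMM it was 55 of 92 with a median of 0.04, while the median of all genes was -0.07. At 5 against 0 mg/kg the numbers were 72 of 92 and 0.18, and at 0.5 against 0 mg/kg 78 of 92 and 0.17. By complex, the medians at 0.5, 5 and 50 mg/kg were 0.15, 0.16 and 0.10 for complex I, and 0.21, 0.30 and 0.17 for complex II. They were 0.24, 0.14 and 0.11 for complex III, 0.16, 0.23 and 0.13 for complex IV and 0.17, 0.20 and 0.15 for complex V. The assembly factors had 0.18, 0.19 and 0.16. At 50 against 5 mg/kg 34 of 92 members were positive, with a median of -0.04, beside -0.003 for all genes. Without 5 mg/kg replicate 2 the members' median was 0.01. The 78 cytosolic ribosomal protein genes, also short and abundant transcripts, had medians of 0.16, 0.16 and 0.11 at the 3 doses, and the 10 hepatocyte markers 0.19, 0.26 and 0.13. Their part in the members' medians was not tested.

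**Figure D3:**
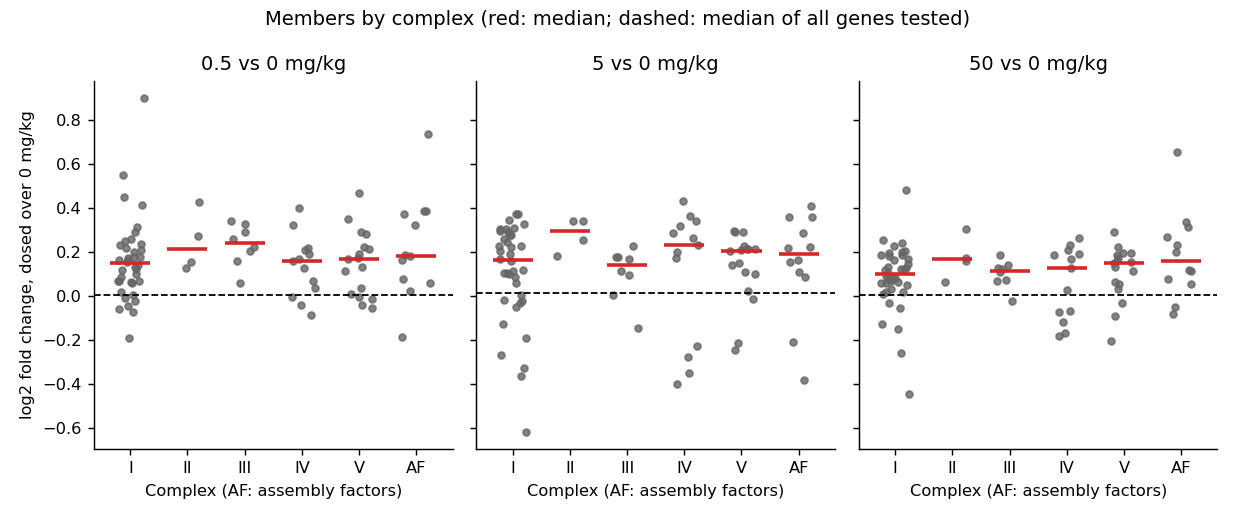
Log2 fold change of each tested member over 0 mg/kg at 0.5, 5 and 50 mg/kg, by complex; points are members, red lines complex medians and the dashed line the median of all 14415 genes tested. Every complex median lies above the dashed line, between 0.10 and 0.30, and no point passed an adjusted p of 0.05.

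The lean at 0.5 mg/kg differed between runs and, as at 50 mg/kg, between scalings. Within the run numbered from 601, which holds 4 of the 5 controls, 44 of 92 members were positive at 0.5 against 0 mg/kg with a median of -0.01, beside -0.03 for all genes. Against the single control of the run numbered from 619 the median was 0.59. Scaled by library totals instead of TMM, 45 of 92 members were positive with a median of -0.00, and the median of all genes was -0.17. The members' median then lay 0.17 above that of all genes, and 0.16 above it with TMM. Without the 2 libraries high in acute phase transcripts the members' median was 0.32, beside -0.03 for all genes. At 5 and 50 mg/kg the medians within the run from 601 were 0.19 and 0.10, and against the single control of the other run they were 0.29 and 0.25.

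In complex I the core subunits, which carry the flavin, the iron-sulfur clusters and the path to ubiquinone, were positive for 7 of 7 genes at each dose, with medians of 0.17, 0.17 and 0.12 at 0.5, 5 and 50 mg/kg. The 31 rows of supernumerary subunits, the pseudogenes Ndufs6b and Ndufb4c among them, had 25, 21 and 25 positive. Ndufs1, the core subunit with several iron-sulfur clusters, had 151 to 199 CPM (median 164) at 50 mg/kg, against 131, 147, 155, 125 and 159 CPM at 0 mg/kg. Of the 8 dosed mice 6 were above the highest control, and the groups overlapped. The log2 fold change was 0.21 ± 0.11 (SE), with an edgeR adjusted p of 0.975. Ndufs1 also varied little, with an SD of 0.16 on the log2 scale over the 26 livers.

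Among the supernumerary subunits, Ndufb3 had 41.0, 58.3, 45.0, 49.1 and 50.8 CPM at 0.5 mg/kg, against 32.3, 27.1, 28.0, 43.3 and 34.4 CPM at 0 mg/kg. All but 1 dosed mouse lay above the highest control, 0 mg/kg replicate 4. Its log2 fold change was 0.55 ± 0.15 (SE), unadjusted p = 0.0013 and edgeR adjusted p = 0.492. At 50 mg/kg it was 0.26 ± 0.14. Ndufa7 had 41.7 to 62.8 CPM (median 52.1) at 5 mg/kg, against 40.9, 31.9, 40.2, 50.6 and 35.3 CPM at 0 mg/kg, with 5 of 8 above the highest control and a log2 fold change of 0.35 ± 0.15 (edgeR adjusted p = 0.780).

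Complex II showed 4 of 4 subunits with positive folds at each dose, none past the test. Sdhd, a membrane anchor, had 137 to 217 CPM (median 190) at 50 mg/kg and 133, 253, 190, 210 and 207 CPM at 0.5 mg/kg, against 134, 131, 171, 133 and 166 CPM at 0 mg/kg. Of the dosed mice, 6 of 8 and 4 of 5 were above the highest control. The log2 fold changes were 0.31 ± 0.15 at 50 mg/kg and 0.43 ± 0.16 at 0.5 mg/kg (SE; edgeR adjusted p = 0.974 and 0.596). The iron-sulfur subunit Sdhb had 106 to 170 CPM (median 131) at 5 mg/kg, against 88.2, 109, 114, 123 and 79.8 CPM at 0 mg/kg, a log2 fold change of 0.34 ± 0.19 (edgeR adjusted p = 0.780). This value was 0.21 when 0 mg/kg replicate 5, the only control of its run, was left out.

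The subunits of complex II did not vary together in every mouse. Sdha, the flavoprotein, Sdhb and the other anchor Sdhc were all lowest in 50 mg/kg replicate 7, at 248, 76.6 and 46.1 CPM, where Sdhd had 188 CPM, above its median of 176 CPM. In 0.5 mg/kg replicate 2 Sdhd reached its highest value, 253 CPM, while Sdhc had 54.6 CPM, against a median of 80.3 CPM over the 26 livers. Complex II summed to 539 CPM in 0.5 mg/kg replicate 1 and to 1027 CPM in 0.5 mg/kg replicate 4, the lowest and highest sums of the study at the same dose.

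In complex III the core protein Uqcrc2 had 174, 276, 248, 283 and 280 CPM at 0.5 mg/kg, against 185, 178, 211, 197 and 216 CPM at 0 mg/kg. The first of the dosed values was the lowest of the 10 and the other 4 were the highest, so the groups overlapped through 1 mouse. The log2 fold change was 0.33 ± 0.14 (SE; edgeR adjusted p = 0.624), and it was 0.17 ± 0.12 at 5 mg/kg and 0.14 ± 0.12 at 50 mg/kg, where it was 0.08 without 50 mg/kg replicate 3. Uqcr10, a small accessory subunit, had 0.19 ± 0.14 at 50 mg/kg, 0.11 without 0 mg/kg replicate 2, and -0.04 in the run numbered from 619 alone.

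In complex IV, Cox6b1, a subunit on the cytochrome c side, had 61.3 to 136 CPM (median 93.0) at 5 mg/kg, against 68.5, 58.4, 61.9, 83.4 and 53.2 CPM at 0 mg/kg. The highest dosed value was that of replicate 6, and 6 of 8 dosed mice were above the highest control. The log2 fold change was 0.43 ± 0.20 (SE; edgeR adjusted p = 0.780). Cox7c had 0.32 ± 0.16 at 0.5 mg/kg, and Cox8a and the supercomplex factor Cox7a2l had 0.23 ± 0.19 and 0.26 ± 0.16 at 50 mg/kg, none past the test. Without 0 mg/kg replicate 5 the values at 50 mg/kg were 0.11 for Cox8a and 0.12 for Cox7a2l, and that of Cox6b1 at 5 mg/kg was 0.29. Without 0 mg/kg replicate 4 Cox8a had 0.35.

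In complex V the central stalk subunit Atp5c1 had 217 to 303 CPM (median 253) at 50 mg/kg and 222, 274, 265, 278 and 297 CPM at 0.5 mg/kg, against 221, 191, 210, 202 and 218 CPM at 0 mg/kg. At 0.5 mg/kg all 5 dosed mice were above all controls, the nearest by under 1 CPM, and at 50 mg/kg 7 of 8 were. It was the only 1 of the 92 members tested to stand wholly above the controls at 0.5 mg/kg, as 0.645% of all genes did. At 5 and 50 mg/kg 0 members did, beside 0.0832% and 0.118% of all genes. No member stood wholly below the controls at 0.5, 5 or 50 mg/kg, where 0.756%, 0.139% and 0.0486% of all genes did. The log2 fold change of Atp5c1 was 0.35 ± 0.13, 0.20 ± 0.12 and 0.29 ± 0.12 for the doses in ascending order (SE; edgeR adjusted p = 0.604, 0.780 and 0.921).

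Of the remaining ATP synthase genes, Atp5mpl, a small membrane proteolipid, had 74.4, 64.7, 37.3, 49.8 and 56.1 CPM at 0.5 mg/kg, against 41.2, 33.5, 41.0, 48.7 and 42.0 CPM at 0 mg/kg. Its highest values were those of 0.5 mg/kg replicates 1 and 2, the libraries high in acute phase transcripts, and the log2 fold change was 0.47 ± 0.15 (SE; edgeR adjusted p = 0.492). Atp5o, which links the catalytic head to the side stalk, had 0.29 ± 0.16 at 5 mg/kg (edgeR adjusted p = 0.780). This value was 0.16 when 0 mg/kg replicate 5, the only control of its run, was left out.

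The largest fold of any member at 50 mg/kg was in an assembly factor. Ndufaf6, needed in complex I assembly, had 11 to 20.7 CPM (median 15.97) at 50 mg/kg, against 10.4, 10.7, 12.6, 9.79 and 9.02 CPM at 0 mg/kg. Of the 8 dosed mice 7 were above the highest control, and 50 mg/kg replicate 6 was not. The log2 fold change was 0.65 ± 0.20 (SE, 95% interval 0.25 to 1.05), with an unadjusted p of 0.0024 and an edgeR adjusted p of 0.707. Leaving out each mouse in turn gave 0.59 to 0.72. The gene lies at chr4:11051045-11076205 on the minus strand (mm10). At 0.5 and 5 mg/kg the log2 fold changes were 0.39 ± 0.21 and 0.36 ± 0.19. Its slope per dose rank, 0.19 ± 0.06, had the smallest p of any member across dose ranks (unadjusted p = 0.0035, edgeR adjusted p = 0.972). Ndufaf5, which modifies the core subunit Ndufs7, had 0.74 ± 0.27 at 0.5 mg/kg at a level of 2.20 to 7.14 CPM in the mice compared, and Ndufaf3, an early complex I factor, had 0.41 ± 0.21 at 5 mg/kg and 0.26 without 5 mg/kg replicate 2. Ndufaf4, which works with it, had 30.8 to 64.2 CPM (median 54.7) at 50 mg/kg, against 57.3, 42.4, 49.0, 34.2 and 42.7 CPM at 0 mg/kg, with 2 of 8 dosed mice above the highest control. Its log2 fold change was 0.34 ± 0.16 (edgeR adjusted p = 0.965).

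Between the runs of mouse numbers 0 of 92 members passed the edgeR test, where 0.0902% of all genes did, and 2 had an unadjusted p under 0.05, as 7.98% of all genes did. Both were assembly factors of complex I. Ndufaf4 had 30.8 to 58.5 CPM (median 35.4) in the run from 619, against 34.2 to 76.7 CPM (median 53.9) in the run from 601. The ranges overlapped, and the means were 40.3 ± 9.72 CPM (SD, n = 11) and 53.8 ± 9.59 CPM (SD, n = 15). The log2 fold change was -0.46 ± 0.11 (SE, 95% interval -0.69 to -0.24) with an edgeR adjusted p of 0.0842, and DESeq2 gave an adjusted p of 0.0156. Leaving out each mouse in turn gave -0.52 to -0.40, and the edgeR adjusted p was 0.0378 when 0 mg/kg replicate 4 was left out and 0.0333 when 50 mg/kg replicate 7 was. It was 0.253 without 5 mg/kg replicates 6 and 8. The gene lies at chr4:24898083-24905001 on the plus strand (mm10), and its longest principal transcript was the most AT-rich of the members at 39.5% G and C. With correction for GC content the log2 fold change was -0.37. By dose the mean was 42.7 (1 mouse), 38.6, 33.4 and 47.3 CPM at 0, 0.5, 5 and 50 mg/kg in the run from 619, against 45.7, 54.7, 58.1 and 56.8 CPM in the run from 601. The runs lay closest at 0 mg/kg. Ndufaf1, another early complex I factor, had 13.6 to 27.6 CPM (median 20.96) in the run from 619, against 13.999 to 26.2 CPM (median 16.3) in the run from 601, and a log2 fold change of 0.24 ± 0.11 (edgeR adjusted p = 0.601).

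Over all members the median log2 fold change between runs was 0.05, with 63 of 92 positive, beside a median of 0.02 for all genes. The members' median was 0.0021, with 47 of 93 positive, without 0.5 mg/kg replicates 1 and 2, the libraries high in acute phase transcripts. The median of all genes was 0.01 there. Leaving out each mouse in turn gave members' medians of 0.02 to 0.09. Among the members of smallest p in their complexes were Ndufa5 at -0.30 ± 0.15, Cox7a2 at -0.27 ± 0.15 and Uqcrh at -0.26 ± 0.17, while Cox6b1 had 0.24 ± 0.14 and Sdha 0.17 ± 0.12 (SE). Without 5 mg/kg replicate 3 Ndufa5 had -0.19, Cox7a2 -0.18 and Uqcrh -0.16, and without 0 mg/kg replicate 5 Uqcrh had -0.42. All 13 mitochondrially encoded subunits were negative, with a median of -0.24, and 0 passed the edgeR test, with 1 (mt-Co2) at an unadjusted p under 0.05. In the same comparison 2 of 15 core clock genes rose. Npas2 had 0.139 to 5.71 CPM (median 3.51) in the run from 619, against 0 to 1.61 CPM (median 0.148) in the run from 601 (edgeR adjusted p = 0.00987), and Arntl had medians of 19.5 and 6.84 CPM (edgeR adjusted p = 0.0490). The hour of harvest is not in the labels, and the part of the clock in the values of Ndufaf4 was not tested. A test of whether the difference between 50 and 5 mg/kg changed with the run, on 16 mice, called 0 of 91 members and 0% of all genes. At an unadjusted p under 0.05 it gave 0 members, beside 4.89% of all genes, and the smallest unadjusted p of a member was 0.0692, for Ndufaf4.

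Livers of the same dose differed widely. In each library the members were set against their own 26-liver medians, and the number above them ran from 10 of 92 in 0 mg/kg replicate 2 to 81 of 92 in 5 mg/kg replicate 2. It ran from 35 to 76 (median 45) at 0.5 mg/kg, from 15 to 81 (median 56.5) at 5 mg/kg and from 21 to 78 (median 50) at 50 mg/kg, against 10 to 49 (median 29) at 0 mg/kg. The 4 doses overlapped, and complexes mostly shared the sign of a library, as the map of complex medians by liver shows. Complex III and complex V lay nearer to their medians in some of the low livers. In 50 mg/kg replicate 7 the median deviation was -0.61 for complex II, -0.41 for complex IV and -0.32 for complex I, but -0.07 for complex III and -0.09 for complex V. The sum over all 94 members was 8451 to 12674 CPM, lowest in 5 mg/kg replicate 8, the library with steroid-producing cell transcripts. By dose the sum was 11076 ± 1184, 10641 ± 1383 and 10548 ± 962 CPM at 0.5, 5 and 50 mg/kg (SD, n = 5, 8 and 8), against 9947 ± 619 CPM at 0 mg/kg (SD, n = 5).

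**Figure D4:**
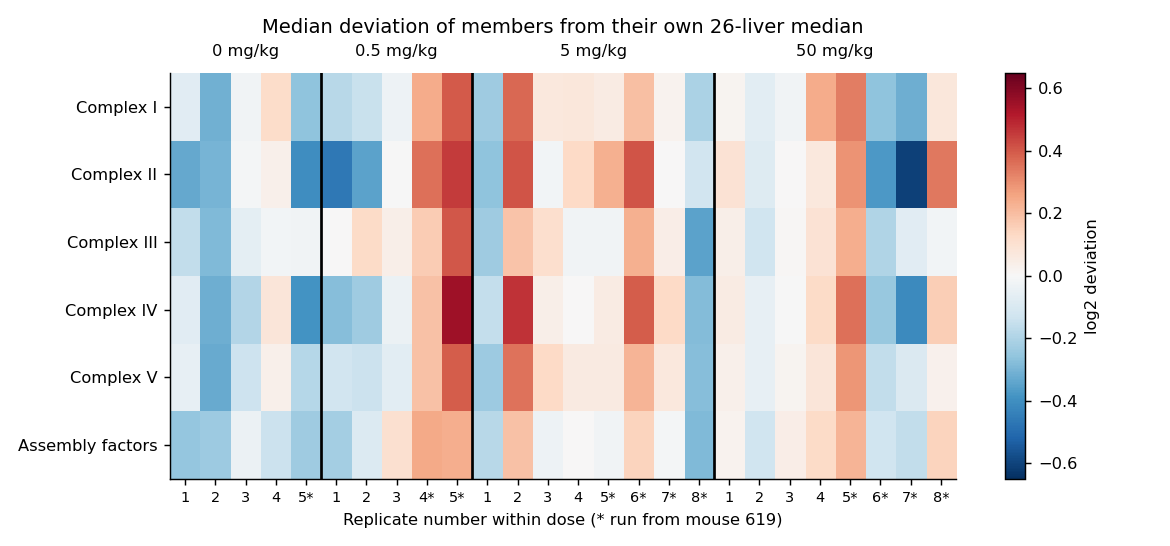
Median log2 deviation of the tested members of each complex from their own median over 26 livers; columns are livers by dose, with an asterisk for the run from 619, and red is above and blue below. Complexes mostly share a color within a liver, and livers of both colors occur at every dose.

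Some members of 1 complex differed in opposite ways from liver to liver. Ndufa4 had 206 to 869 CPM (median 435) and Cox6a1 102 to 300 CPM (median 196), although both belong to complex IV. The ratio of Cox6a1 to Ndufa4 CPM ran from 0.150 in 0.5 mg/kg replicate 1 to 0.967 in 50 mg/kg replicate 8. Of the 6 livers lowest for Cox6a1, 4 were among the 6 highest for Ndufa4: 0.5 mg/kg replicate 1, 5 mg/kg replicate 1, 50 mg/kg replicate 7 and 0 mg/kg replicate 5. Cox4i1, Cox8a and the complex I subunit Ndufa10 each shared 5 of their 6 lowest livers with Cox6a1. Ndufs4, a complex I subunit, shared 5 of its 6 highest livers with Ndufa4, as did the summed mitochondrially encoded subunits, and Uqcrh and Cox7a2 shared 4. The livers at these ends came from all 4 doses.

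Members also split by base composition. The transcript of Cox6a1 is 58.8% G and C and that of Ndufa4 44.1%, and members ranged from 39.5% to 60.4%. Split at their median of 50.5%, the 46 GC-rich members less the 46 GC-poor members gave a difference of median log2 deviations from -0.47 in 50 mg/kg replicate 7 to 0.33 in 0 mg/kg replicate 4. The same split of the 6721 GC-rich and 7592 GC-poor other genes gave -0.33 to 0.23. Of the 6 livers lowest for the members, 5 were among the 6 lowest for the other genes, and 4 of the 6 highest were shared. With each library's counts corrected for GC content over all genes, 71 of 92 members varied less between livers and the median SD was 0.30, against 0.33 before, on the log2 scale. The SD of Cox6a1 was 0.36, against 0.43 before, that of Ndufa4 0.44, against 0.49, and that of Cox7a2 0.46, against 0.40. This correction was fitted to all genes tested, the members among them, so less spread is likely for many genes. The share of all genes that varied less was not computed, so the count does not set the members apart. The correction was chosen after seeing the data, and the cause of the split was not tested.

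Members of either composition leaned to positive dose folds. At 50 against 0 mg/kg 41 of 46 GC-rich and 34 of 46 GC-poor members were positive, beside 43.4% and 57.5% of the other genes. At 5 mg/kg the members gave 39 and 33 of 46, beside 54.0% and 49.7% of the other genes. At 0.5 mg/kg the members gave 40 and 38 of 46, beside 41.4% and 58.9% of the other genes. With the GC correction the medians over all members were 0.17, 0.17 and 0.11 at 0.5, 5 and 50 mg/kg.

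**Figure D5:**
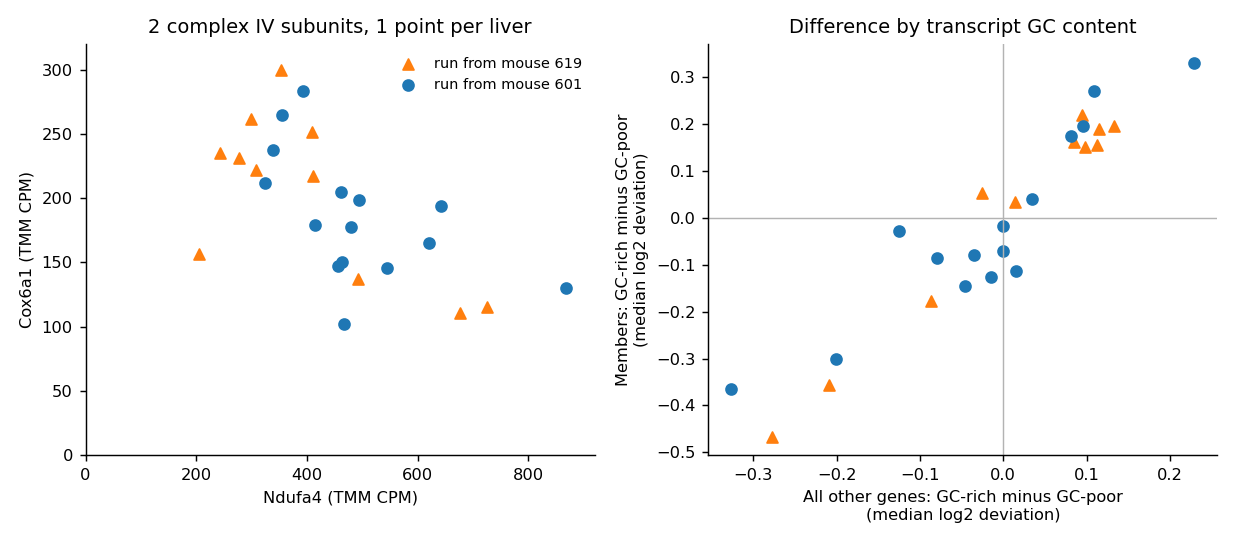
Left, Cox6a1 against Ndufa4 in TMM-scaled CPM, with 1 point per liver; right, GC-rich minus GC-poor median log2 deviation, with members on the vertical axis and all other genes on the horizontal axis. Triangles are mice of the run from 619 and circles those of the run from 601; livers low in Cox6a1 tend to be high in Ndufa4, and members and other genes split the same way in most livers.

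No gene around the chain passed the test by dose. Of the 13 mitochondrially encoded subunits 9, 1 and 4 were positive at 0.5, 5 and 50 mg/kg, with median log2 fold changes of 0.11, -0.27 and -0.08, so at 5 and 50 mg/kg their medians were opposite in sign to those of the nuclear genes. Of 13 citrate cycle enzymes 8, 10 and 10 were positive, of 18 carriers and feeders of electrons 11, 13 and 12, and of 27 assembly factors outside the prefixes 19, 17 and 19. No gene of these lists or of the 13 regulators of mitochondrial gene expression passed the edgeR test at 0.5, 5 or 50 mg/kg. Ppargc1a, a coactivator of mitochondrial gene expression, had 5.69 to 13.5 CPM (median 11.8) at 50 mg/kg, against 6.17 to 16.6 CPM (median 9.19) at 0 mg/kg, a log2 fold change of 0.11 ± 0.23 (SE). Tfam, which packages and transcribes mitochondrial DNA, had 0.33 ± 0.11 at 50 mg/kg (SE; unadjusted p = 0.0041, edgeR adjusted p = 0.769), and the coactivator Ppargc1b had -0.63 ± 0.26 at 50 mg/kg and -0.94 ± 0.30 at 0.5 mg/kg (edgeR adjusted p = 0.914 and 0.492). Both were named after their values were seen.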

How the data were processed

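Liver RNA from 26 mice was sequenced, and the authors deposited raw read counts per gene. The counts were made with bcl2fastq and featureCounts on mm10, per the submitters' processing notes; the aligner, annotation, strand setting and versions are not given in the sources used here. The deposited counts were used as they stand. In 76 comparisons of libraries within a dose, chi-square per degree of freedom was 12.0 to 124, so no library was counted as a repeat of another.

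Genes were filtered with filterByExpr, scaled by TMM and tested with edgeR 4.0.16 (R 4.3.3) quasi-likelihood fits with terms for dose and run, adjusted over 14415 genes at a threshold of 0.05. The test was checked on simulated data. limma 3.58.1 and DESeq2 1.42.0 served as alternatives. Levels per length and GC content used the longest principal transcript of GENCODE M21 (GRCm38); promoters were those of RefSeq. Members and gene lists were chosen with earlier results of these data known. The rule named, per complex, the members of smallest p (2 at 50 against 0 mg/kg and between runs, 1 at each other dose), those of highest and lowest level, all Sdh subunits, the isoform forms, Ppargc1a and any listed gene past the threshold. Genes whose livers shared their highest or lowest values were named after their values were seen. A p-value sets an estimated difference against the spread between these mice.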

Additional observations from a re-analysis of the deposited data

Results flagged for a closer look

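Of 184 dose groups examined over 46 members and sums, 11 held a liver that lay far from the others by Dixon's criterion, where chance gives about 1 in 20. In 5 mg/kg replicate 3 this was so for 3 short transcripts, Ndufa5 at 155 CPM (next 90.6), Ndufa2 at 157 CPM (next 101) and Cox7a2 at 224 CPM (next 143). In 0.5 mg/kg replicate 1 Ndufa6 had 261 CPM (next 172). At 50 mg/kg, replicate 3 had 199 CPM of Ndufs1 (next 173), replicate 5 had 68.8 CPM of Atp5g2 (next 55.0) and replicate 7 had 16.8 CPM of Sdhaf3 (next 10.7).

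Ndufaf5 had 7.03 CPM in 5 mg/kg replicate 2 (next 3.83), the liver with the most members above their own medians. Cox8a had 129 CPM in 0 mg/kg replicate 4 (next 98.4), and Cox8b had 0.124 CPM in 0.5 mg/kg replicate 4 from a single read. The summed complex I level was 2112 CPM in 0 mg/kg replicate 2, below the next of its group at 2463 CPM. It is 1 of the 5 controls that every dose was set against.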

How the results depend on the processing

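No member was called by dose under any alternative run. The median log2 fold change at 0.5 against 0 mg/kg was 0.59 in the run numbered from 619 alone, which holds 1 control, against 0.17 over all mice. Between runs, 0 members were called by edgeR at an adjusted p of 0.05, 1 at 0.1 and 1 by DESeq2, and 0 to 1 when each mouse was left out in turn; each call was Ndufaf4. Single members were followed in 36 pairs of member and comparison, chosen for the smallest p in their complex in these data. None was called in the main fit, so an unchanged direction and call was favoured in advance. Of 1368 alternative values of these members, most with 1 mouse left out, 1363 kept direction and call. Those that reversed were Sdhb between runs, at -0.027 without the libraries of high acute phase transcripts, and Uqcr10 at 50 mg/kg, at -0.045 in the run numbered from 619; neither passed the test. The cause was not tested.

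Leaving out each mouse gave medians of 0.09 to 0.24 at 0.5 mg/kg, 0.12 to 0.24 at 5 mg/kg and 0.07 to 0.17 at 50 mg/kg. At 50 against 5 mg/kg they were -0.10 to 0.01, and the positive end was without 5 mg/kg replicate 2. With a minimum mean of 1 or 100 reads, 96 or 79 members were kept. No paired analysis was possible because replicate numbers follow the order of deposit within a dose and pair no mice.

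With 5 controls, 1 of them in the run from 619, the median standard error over members was 0.19 at 50 against 0 mg/kg on the log2 scale. Genes with few reads, such as Cox8b and Cox7a1, entered the test without a filter on low counts, where 94 members were tested and 0 called. Libraries of 5433074 to 9088626 counts limit low genes, and counting without known strand limits overlapping ones.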
